A study of Mus musculus with 2 samples.

Results

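AP-1 is a transcription factor built from pairs of basic leucine zipper proteins, and the 8 genes described here encode its Fos subunits (Fos, Fosb, Fosl1 and Fosl2), its Jun subunits (Jun, Junb and Jund) and the related factor Atf3. They were chosen by name from the GENCODE vM21 annotation of the mouse genome GRCm38, and they are 8 of 21951 protein-coding genes. Every deposited ATAC-seq peak whose summit lay in the body of one of these genes or within 50 kb of either end was used. A peak was called a promoter peak when its summit lay within 1 kb of any annotated transcription start site (TSS) of the gene, and a distal peak otherwise. By this rule 22 of the 58519 peaks of replicate 1 belonged to the AP-1 genes, with 7 at promoters and 15 distal. In replicate 2 they were 34 of 64984 peaks, with 9 at promoters and 25 distal.

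The study measured open chromatin by ATAC-seq, in which a transposase cuts accessible DNA, in LβT2 cells. LβT2 is an immortalized mouse line with features of the pituitary gonadotrope, derived from a tumor that the SV40 T-antigen, driven by a regulatory region of the rat LHβ gene, caused in transgenic mice. Both replicates received the same treatment, pulses of 2 nM gonadotropin-releasing hormone (GnRH) every 2 h over 6 h 45 min. This gave 4 pulses, and the cells were harvested 45 min after the last one. Both came from passage 21, with 4500 cells per transposase reaction, and the labels do not say whether they were separate cultures, although the study describes its samples and libraries as independent. If they were not separate, the spread between them is technical. No sample without GnRH was analysed here. The values therefore describe 1 condition with n = 2, and whether GnRH opened any of these sites cannot be told from them.

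AP-1 proteins bind DNA only as pairs. Jun proteins can pair with each other or with Fos proteins, whereas Fos proteins need a Jun partner, and the pair recognizes a short palindrome, the AP-1 site. Fos, Fosb, Junb, Jun and Atf3 are classic immediate-early genes, whose transcription begins within minutes of a stimulus without new protein synthesis. In gonadotropes the GnRH receptor signals through protein kinase C and the mitogen-activated protein kinases (MAPKs). In many cell types these pathways reach the Fos promoter through serum response factor (SRF) and its ETS partners, which bind at the CArG box, and through CREB, which binds at the cyclic AMP response element (CRE). AP-1 is a known regulator of Fshb, which encodes a subunit of follicle-stimulating hormone.

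Sequences at Fos and Fosb that carry such sites are printed first, because the replicates placed their promoter summits in or beside them. All sequences are from GRCm38 and run 5′ to 3′. The Fos promoter stretch is chr12:85473571-85473870 on the plus strand and ends just upstream of the TSS. The Fosb promoter stretch is chr7:19310072-19310371 on the minus strand, the strand of the gene. The third stretch is part of the accessible region downstream of Fos, chr12:85485881-85486125 on the plus strand, which lies outside any annotated exon of Fos. Capitals mark the CArG box, the CRE half-site (TGACG or CGTCA), the SP1 site (GGGCGG or CCGCCC), the EGR1 site (GCGGGGGCG) and the TATA box (TATAAA) in the promoters, and the CArG box alone in the downstream region. Not every marked site lay inside the called peaks. The CArG box of the Fos promoter lay outside the replicate 1 peak, which starts at 85473591. The downstream CArG box lay outside the replicate 2 peak, which ends at 85486107. At Fosb the replicate 2 peak starts at 19310307 and covers only part of the stretch, and neither peak contains the EGR1 site.
Fos promoter: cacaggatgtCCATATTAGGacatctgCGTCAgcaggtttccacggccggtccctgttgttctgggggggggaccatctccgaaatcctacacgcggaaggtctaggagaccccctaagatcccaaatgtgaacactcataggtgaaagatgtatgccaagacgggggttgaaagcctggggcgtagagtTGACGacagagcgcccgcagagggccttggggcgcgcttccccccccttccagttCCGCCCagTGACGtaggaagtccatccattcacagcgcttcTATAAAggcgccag
Fosb promoter: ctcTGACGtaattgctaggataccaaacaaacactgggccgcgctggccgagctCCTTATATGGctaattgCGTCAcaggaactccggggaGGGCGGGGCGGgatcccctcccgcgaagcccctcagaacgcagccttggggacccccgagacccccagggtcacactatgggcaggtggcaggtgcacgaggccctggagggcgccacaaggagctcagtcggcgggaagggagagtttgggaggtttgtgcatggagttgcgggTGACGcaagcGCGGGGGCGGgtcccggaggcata
Fos downstream region: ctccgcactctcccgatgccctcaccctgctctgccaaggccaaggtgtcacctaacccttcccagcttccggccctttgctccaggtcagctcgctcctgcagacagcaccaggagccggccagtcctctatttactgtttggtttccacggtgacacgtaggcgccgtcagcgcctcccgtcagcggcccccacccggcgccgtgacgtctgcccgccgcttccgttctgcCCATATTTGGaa

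The other sequences shown are 30 bases around each remaining CArG box, and around each AP-1 site (TGACTCA or TGAGTCA) or full CRE (TGACGTCA), within 200 bp of a summit of an AP-1 gene. They are given on the plus strand, with the site in capitals, at chr5:32135843-32135872 for Fosl2, chr8:70698724-70698753 for Jund, chr7:19327337-19327366 for Fosb and chr1:191224432-191224461 for Atf3. The pair for Fosl1 lies at chr19:5489097-5489126 and chr19:5489155-5489184, and the sites for Junb lie at chr8:84976614-84976643, chr8:84980149-84980178 and chr8:85025412-85025441. The Fosl1 pair, the Atf3 site and the AP-1 site for Junb lie at promoters of other genes, named below.
Fosl2 promoter, AP-1 site: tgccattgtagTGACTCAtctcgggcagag
Jund promoter, CRE: ccccacccccaTGACGTCAacccacaatgc
Fosb upstream, AP-1 site: atccccgctgaTGACTCAttacgtcatcgt
Atf3 upstream, AP-1 site: ggcggggctgaTGACTCAcgcagtcgggcc
Fosl1 downstream, CArG box 1: cctcaagcagCCTTATAAGGagcctgcagc
Fosl1 downstream, CArG box 2: aggcttatgcCCTAATAAGGacatctaggg
Junb 3′ flank, CArG box: ctgaataggcCCATATATGGgcagagcttc
Junb upstream, CArG box: tccccagcacCCATATTAGGgcacaggaag
Junb upstream, AP-1 site: tcaccattttaTGAGTCAagggctcacctt

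Of the 8 genes, 7 had an accessible promoter in both replicates, and Fosl1 had none in either. Among all protein-coding genes, 32.3% had a promoter peak in replicate 1, 44.4% in replicate 2 and 30.8% in both, against 7 of 8 AP-1 genes in each case. The height of a peak was read in 3 ways. Tags are the peak caller's count at the summit, recovered from the deposited values as whole numbers. The fold is the peak caller's ratio of the tags to the background, each increased by 1, and the background was 3.05 tags in replicate 1 and 3.54 in replicate 2. The −log10 q is the peak caller's adjusted significance. At the promoters of protein-coding genes with a peak, the median was 19 tags in replicate 1 and 27 tags in replicate 2. The AP-1 promoters with a peak had a median of 21 and 29 tags. Their median percentile by −log10 q among those genes was 59.9 in replicate 1 and 56.9 in replicate 2, so the accessible AP-1 promoters stood near the middle of accessible promoters in general. Under a stricter limit of −log10 q of at least 10, only Fosl2 and Jun kept a promoter peak in replicate 1, 2 of 8 genes against 11.1% of protein-coding genes. In replicate 2 the same limit kept 5 of 8, namely Fosb, Fosl2, Jun, Jund and Atf3, against 26.7%.

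Fos, at chr12:85473890-85477273 on the plus strand, encodes the subunit c-Fos. Its promoter summit held 17 tags in replicate 1 and 23 in replicate 2, and −log10 q was 5.50 and 9.22 (mean 7.36 ± 2.63, SD, n = 2). Both values were below the medians of accessible promoters, at percentiles 39.0 and 38.1. The summits stood apart, at 3 bp upstream of the TSS in replicate 1 and at 270 bp upstream in replicate 2, and the called peaks overlapped by 413 bp. In replicate 2 the CArG box printed above, CCATATTAGG at chr12:85473581-85473590, lay 30 bp from the summit. In replicate 1 that box lay outside the 200 bp window, and the TATA box, 25 bp from the summit, was the nearest of these elements.

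Fosb, at chr7:19302696-19310051 on the minus strand, encodes the subunit FosB. Its promoter held 21 and 26 tags, with −log10 q of 8.54 and 11.7 (mean 10.1 ± 2.22). The replicates placed the summit within 18 bp of each other, 309 and 291 bp upstream of the nearest coding TSS. The CArG box of the promoter lay 43 and 25 bp from these summits, and CRE half-sites flanked it on either side. The Fosb peak was narrow, 313 bp in replicate 1 and 173 bp in replicate 2, where the medians over accessible promoters were 384 and 502 bp. In both lists its extent stopped short of the TSS.

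Fosl2, at chr5:32135801-32157842 on the plus strand, encodes Fra-2, a Fos protein without the strong activation domain of c-Fos. It had the highest promoter of the Fos subfamily, with 27 and 33 tags and −log10 q of 13.8 and 18.0 (mean 15.9 ± 3.01). Its summits lay 4 and 76 bp downstream of the GENCODE TSS, in the 5′ untranslated region. The AP-1 site of the promoter, TGACTCA, lay 49 and 17 bp from them. Replicate 2 alone listed a smaller peak of 14 tags at 0.71 kb upstream. Fosl1, at chr19:5447547-5455946 on the plus strand, encodes Fra-1. No peak of either list fell within 1 kb of any of its 3 TSSs, and the same held within 2 kb. The lowest summit listed anywhere in the genome had 10 tags in replicate 1 and 11 in replicate 2, so a weaker signal at Fosl1 would not have been listed, and the lists do not show that its promoter was closed.

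Jun, at chr4:95049034-95052222 on the minus strand, encodes c-Jun. It had the highest AP-1 promoter in both replicates, with 29 tags (exact 95% Poisson interval 19.4 to 41.6) and 52 tags (38.8 to 68.2), and −log10 q of 15.7 and 38.3 (mean 27.0 ± 16.0). These values stood at percentiles 82.2 and 88.4 of accessible promoters. It was also among the broadest, 1185 and 1982 bp wide, at percentiles 96.7 and 99.1 of width. Its summits were found 117 and 7 bp before the TSS. They also lay within 1 kb of a TSS of Junos, a noncoding gene on the opposite strand. As ATAC-seq does not record strand, the accessible DNA cannot be assigned to either start alone.

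Junb, at chr8:84974484-84978718 on the minus strand, encodes JunB. It had the lowest of the AP-1 promoters that were listed, with 15 tags in replicate 1 (8.4 to 24.7) and 18 in replicate 2 (10.7 to 28.4). The −log10 q was 4.13 and 5.51, at percentiles 25.3 and 19.7. The highest peak of replicate 2 was not at the start of the coding transcript but 1994 bp downstream of it, past the 3′ end of that transcript, close to the TSS of an annotated noncoding transcript of the locus. At the coding TSS itself replicate 2 had a peak of 16 tags and −log10 q of 4.19, so that the coding promoter differed little between replicates (mean 4.16 ± 0.0447). The peak past the 3′ end was listed in replicate 2 alone and held a CArG box 91 bp from its summit.

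Jund, at chr8:70698949-70700616 on the plus strand, encodes JunD, which in many cells is expressed without stimulation. Its promoter held 22 and 29 tags, with −log10 q of 9.36 and 14.3 (mean 11.8 ± 3.50). The summits, 117 and 181 bp upstream of the GENCODE TSS, lay 90 and 26 bp from a full CRE. The same peak also lies at the promoter of the gene Gm11175. RefSeq starts the curated Jund transcript upstream of this peak, at position 70697739, and by that annotation the summit is more than 1 kb downstream of the start and no promoter peak remains. Atf3, at chr1:191170296-191218039 on the minus strand, encodes a stress-induced factor that binds CRE-like sites. Its promoter held 21 and 33 tags, with −log10 q of 8.54 and 18.0 (mean 13.3 ± 6.71). Both summits, 10 and 86 bp downstream, belonged to the inner coding TSS at position 191183340, and no peak of either list lay within 1 kb of the outer coding TSS at 191218039.

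**Figure D1:**
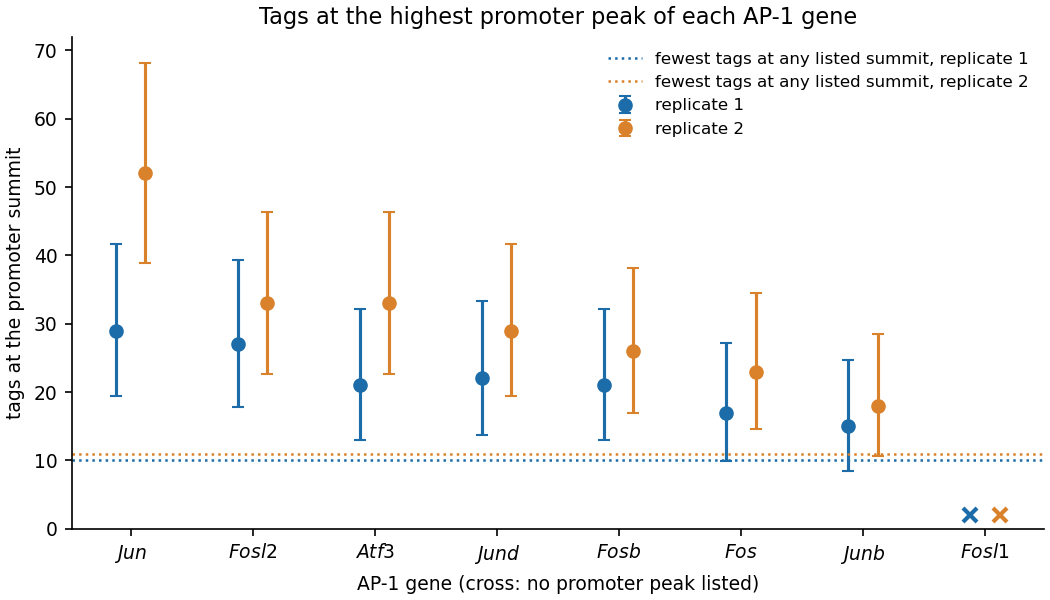
Tags at the summit of the highest promoter peak (vertical axis, linear from 0) of each AP-1 gene (horizontal axis), with exact 95% Poisson intervals as bars, for replicate 1 in blue and replicate 2 in orange. Jun is highest with 29 and 52 tags, Junb is lowest among the listed promoters with 15 and 18, Fosl1 has a cross because no promoter peak was listed, and the dotted lines mark the fewest tags at any listed summit, 10 and 11.

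The order of the promoters by tags was Jun, Fosl2, Jund, then Fosb and Atf3 together at 21, then Fos and Junb in replicate 1. In replicate 2 it was Jun, then Fosl2 and Atf3 together at 33, then Jund, Fosb, Fos and Junb. Neighbours in such an order are by construction the closest values, and more distant pairs were not tested. None of the 12 pairs of neighbours passed the exact two-sided binomial test with Benjamini-Hochberg adjustment, and none had an unadjusted p under 0.05. The smallest exact p was 0.05025 (adjusted p = 0.603), for 52 tags at Jun against 33 at Fosl2 in replicate 2. The other 11 pairs had an adjusted p of 1. At the ends of the order in replicate 2, the intervals of Jun (38.8 to 68.2) and Junb (10.7 to 28.4) did not overlap. These tests cover counting error within a replicate only.

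**Figure D2:**
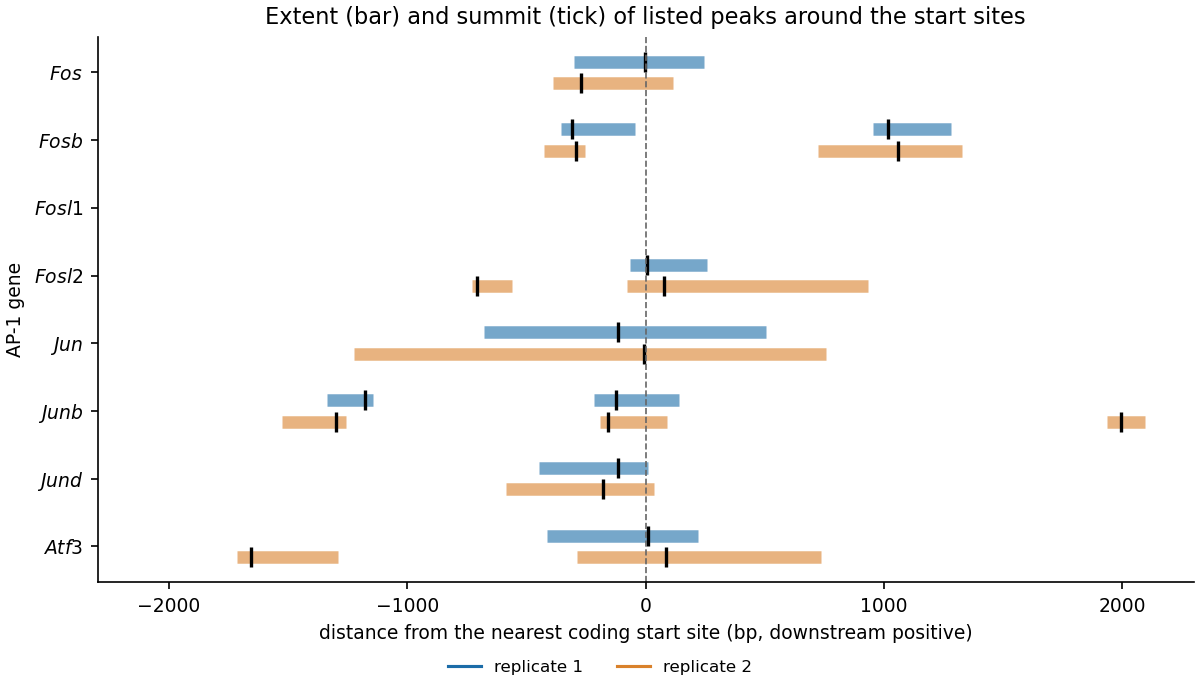
Extent (bars) and summit (black ticks) of the listed peaks around the nearest coding TSS of each AP-1 gene, in bp with downstream positive, for replicate 1 in blue and replicate 2 in orange. The Jun peaks are the broadest at 1185 and 1982 bp, the Fosb promoter peaks end upstream of the TSS, the Fos summits lie 267 bp apart, and the Fosl1 line is empty.

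Between replicates every one of the 7 promoters had more tags in replicate 2. For Junb the highest peaks of the replicates are different sites, 2118 bp apart, so its coding TSS, with 15 and 16 tags, is given as well. Relative to the ratio of the backgrounds, 1.16, the ratio of replicate 2 to replicate 1 was 1.55 for Jun (95% interval 0.964 to 2.53, p = 0.059, adjusted p = 0.413 by the exact two-sided binomial test). Among the others whose highest peaks overlapped, it ranged from 1.05 for Fosl2 to 1.36 for Atf3, each with an adjusted p of 1. At the coding TSS of Junb, an alternative chosen after the data were seen, it was 0.92 (0.426 to 2.00, exact p = 0.858, adjusted p = 0.897). None of these tests had an unadjusted p under 0.05. Promoters in general exceeded those of replicate 1 by more than the background did. Over the 6752 protein-coding genes with a promoter peak in both lists, the median was 19 tags in replicate 1 and 32 in replicate 2, a ratio of 1.68. Of the AP-1 promoters, 6 lay below that ratio, from 1.07 for Junb at its coding TSS to 1.57 for Atf3, and Jun lay above it at 1.79. With Junb taken there, no promoter passed the test against 1.68, with exact p from 0.2 for Junb to 0.819 for Jun (adjusted p 0.679 to 0.819).

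**Figure D3:**
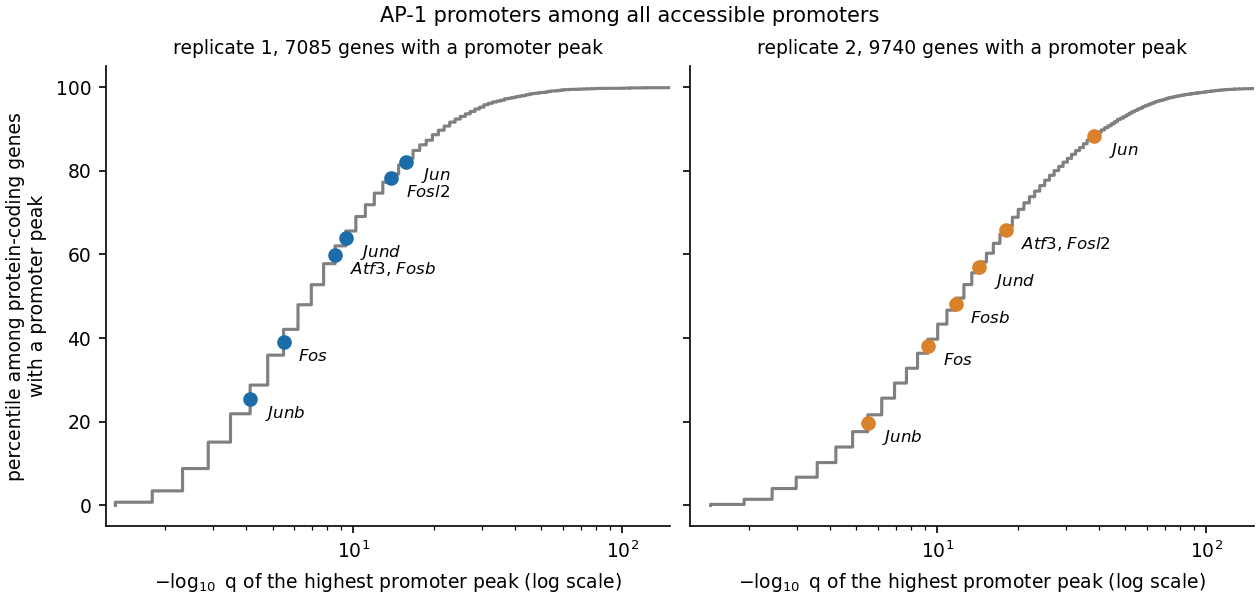
Percentile (vertical axis) against −log10 q of the highest promoter peak (horizontal log axis) for all protein-coding genes with a promoter peak (grey steps), with the AP-1 genes as points, for replicate 1 on the left (7085 genes) and replicate 2 on the right (9740 genes). Junb and Fos lie below the 40th percentile in both panels, and Jun lies at 82.2 and 88.4.

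The accessible regions around the AP-1 genes, merged over both lists, numbered 34, of which 21 were listed in both replicates, 12 in replicate 2 alone and 1 in replicate 1 alone. Of these, 25 were distal, and 14 of the distal regions lay at the promoter of another gene, so that their nearness to an AP-1 gene says little about it. The remaining 11 lay more than 1 kb from any annotated TSS, and 6 of those were in both lists. At least 1 distal peak was found for 5 of 8 AP-1 genes in replicate 1 and for 6 of 8 in replicate 2, against 78.3% and 86.1% of all protein-coding genes. Per 100 kb of window, the AP-1 genes had a median of 1.16 and 2.74 distal peaks against 1.42 and 1.89 for protein-coding genes. Of the distal peaks near AP-1 genes in replicate 1, 14 of 15 (93.3%) shared 1 bp or more with a peak listed in replicate 2. In the other direction the count was 15 of 25 (60%). Over all distal peaks near protein-coding genes the shares were 57.4% and 51.0%, or 55.9% and 42.1% for peaks with a unique summit sequence. This wider set left out every peak within 1 kb of any TSS of a protein-coding gene. The AP-1 set left out only those at the gene's own TSSs. At the promoter of another gene lay 7 of its 15 peaks in replicate 1 and 14 of 25 in replicate 2, so the shares compare unlike sets. When both peaks had to overlap by 50%, the shares for the AP-1 genes were 40% and 24%, and with summits within 100 bp they were 46.7% and 28%. All but 1 of the AP-1 distal regions had a summit sequence that occurs once in the genome. Counted as peaks these were 14 of 15 in replicate 1 and 24 of 25 in replicate 2. In the wider set, which lacks peaks at coding promoters, the shares were 28.9% and 34.1%, so this comparison has the same limit.

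Fos stood in a window without any other protein-coding gene and had 1 distal peak in replicate 1 and 4 in replicate 2. The strongest in both lists lay 12.09 kb downstream of the TSS, with 20 tags (replicate 1) and 31 tags (replicate 2), and its −log10 q was 7.74 and 16.1 (mean 11.9 ± 5.94). Its summits differed by 3 bp, the closest placement of any single-copy AP-1 region listed in both replicates. It was higher than the Fos promoter in each list, by 20 against 17 tags and 31 against 23 tags, differences that were not tested. This is the downstream region printed above, and its CArG box, CCATATTTGG, lay 136 and 133 bp from the summits. In replicate 2 alone a peak of 30 tags lay 18.41 kb upstream of Fos (−log10 q 15.2), and smaller ones of 12 and 16 tags lay 12.51 and 14.01 kb downstream.

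Fosb had the most distal peaks, 7 in replicate 1 and 9 in replicate 2, in a window that holds 7 other protein-coding genes. Its density, 6.52 and 8.38 per 100 kb, stood at percentiles 95.5 and 96.4 of protein-coding genes. The highest, 35.39 and 35.07 kb upstream with 26 and 47 tags, was the promoter of Ercc1, a DNA repair gene. Others lay at the promoters of Vasp, of Gm26802, of Cd3eap and Ppp1r13l, and, in replicate 2 alone, of Rtn2. Away from any TSS and in both lists were 3 regions. That at 17.33 kb upstream in replicate 1 held 15 tags. In replicate 2 the same region had a pair of peaks, the first with 36 tags at 16.55 kb and the second with 19 tags at 17.27 kb. An AP-1 site lay 25 bp from the summit of replicate 1 and 28 bp from that of the second peak of replicate 2. At about 10 kb upstream the tags were 13 and 20. Inside the gene, 1.02 and 1.06 kb downstream of the nearest coding TSS, they were 19 in each replicate.

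**Figure D4:**
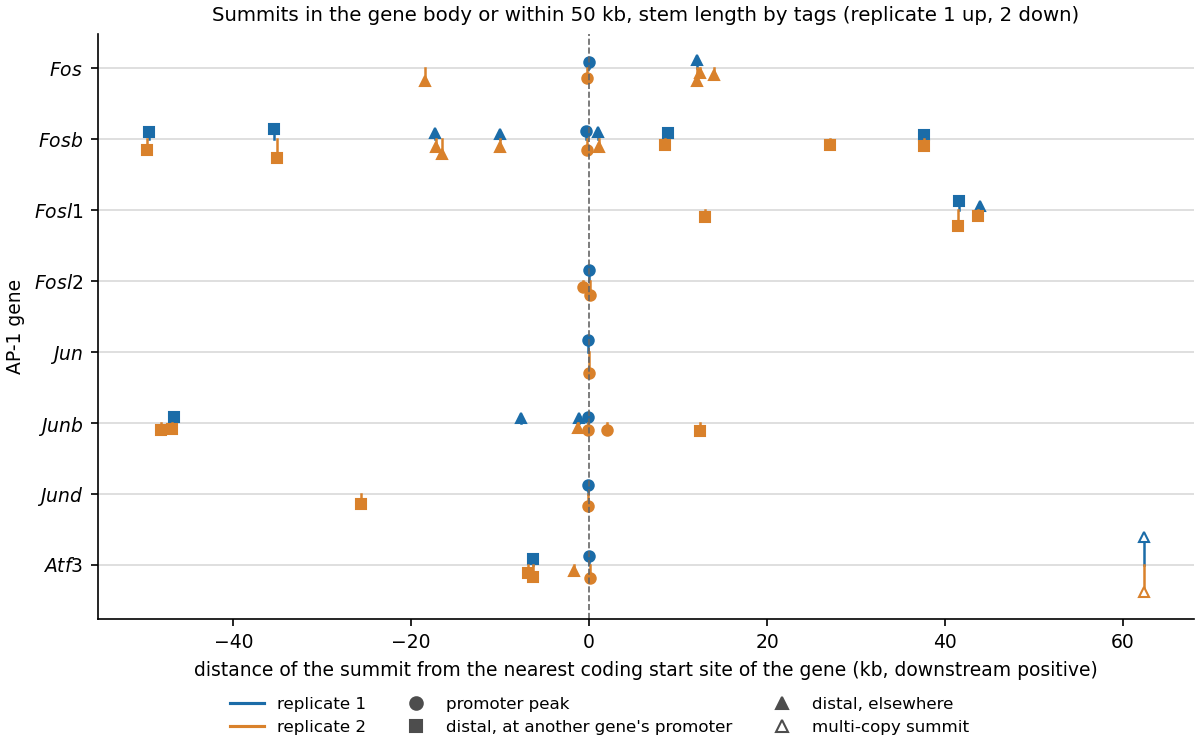
Summits in the body of each AP-1 gene or within 50 kb of its ends, by distance from the nearest coding TSS (kb, downstream positive), with stem length proportional to tags, replicate 1 drawn up in blue and replicate 2 drawn down in orange. Circles are promoter peaks, squares distal peaks at the promoter of another gene, triangles other distal peaks, and open symbols summits of multi-copy sequence. Fosl2 and Jun have no distal peak, Fosb has the most with 7 and 9, and the open symbols at 62.35 kb are the repeated sequence near Atf3.

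Fosl1, without a promoter peak, had its strongest distal region 41.54 and 41.41 kb downstream, with 24 and 39 tags and −log10 q of 11.1 and 24.0. That region is the shared promoter of Mus81, which encodes a DNA endonuclease, and AC126029.2. It held a pair of CArG boxes, CCTTATAAGG and CCTAATAAGG, the first of which covered the summit of replicate 2 and lay 128 bp from that of replicate 1. Beside it replicate 2 listed the promoter of Cfl1, which encodes the actin-severing protein cofilin, with 13 tags. The overlapping peak of replicate 1 had 11 tags, and its summit lay 1038 bp from the Cfl1 TSS, beyond the 1 kb limit. Replicate 2 alone listed the promoter of Fibp with 17 tags. Neither Fosl2 nor Jun had a distal peak in either list, and both sit in windows with no other protein-coding gene. Jund had none in replicate 1, and in replicate 2 it had the promoter of Lsm4 with 25 tags, 25.62 kb upstream.

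Junb had 3 and 4 distal peaks. By mean −log10 q the first of those in both lists was the promoter of Asna1, 46.67 and 46.86 kb upstream with 16 and 15 tags, which held an AP-1 site 34 and 154 bp from the summits. Nearer the gene, 1.18 and 1.30 kb upstream, a weak region held 12 and 13 tags, and a CArG box, CCATATTAGG, lay 142 bp from its summit in replicate 2. Replicate 1 alone listed 13 tags at 7.61 kb upstream, the one region of the family that replicate 2 lacked. Atf3 had 2 and 4 distal peaks. The highest peak of the whole family, 70 and 67 tags with −log10 q of 64.7 and 56.7, lay 62.35 kb downstream of the inner TSS, and its 50 bp summit sequence occurs 6 times in the genome, so its reads cannot be assigned to this locus alone. Among single-copy regions the highest was the promoter of D730003I15Rik, 6.37 and 6.32 kb upstream of the outer TSS, with 15 and 31 tags and an AP-1 site 36 and 84 bp from the summits. That site lay inside the called peak in replicate 2 but outside it in replicate 1. Replicate 2 alone listed 15 tags at 1.66 kb upstream of the inner TSS.

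**Figure D5:**
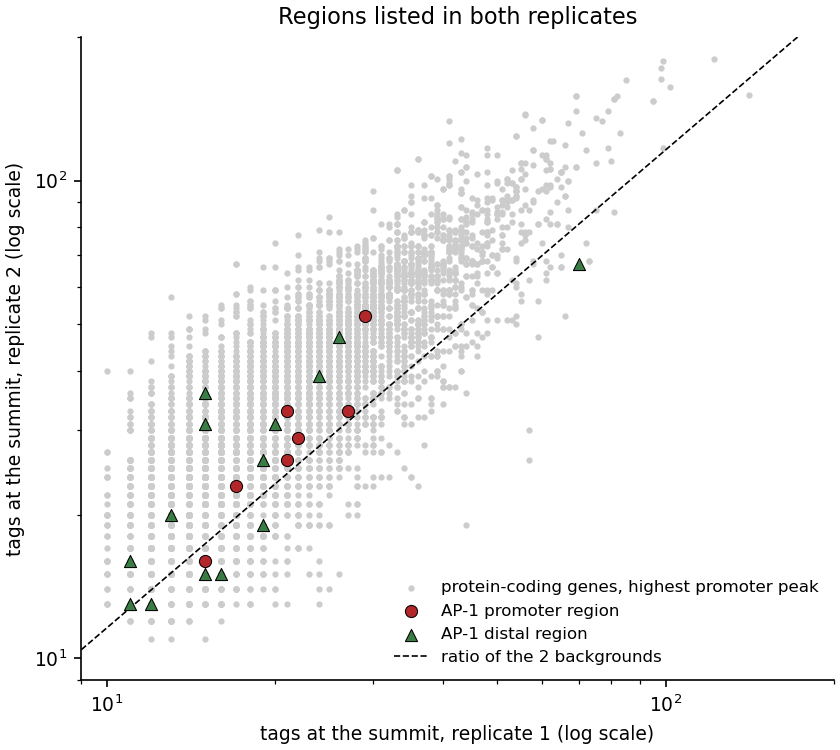
Tags at the summit in replicate 1 (horizontal) and replicate 2 (vertical), both on log axes ending at 200 tags, for the highest promoter peak of protein-coding genes listed in both replicates (grey, 10 of 6752 genes lie beyond the axes) and for AP-1 promoter regions (red circles) and distal regions (green triangles). The dashed line is the ratio of the backgrounds, 1.16. The promoter regions run from 15 and 16 tags for Junb at its coding TSS to 29 and 52 for Jun, and the triangle at 70 and 67 tags is the multi-copy summit near Atf3.

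Sites for these and other factors were counted within 200 bp of each summit on both strands, leaving out the Jun promoter, which left 21 and 33 AP-1 windows. CArG boxes were present in 3 of 21 windows in replicate 1 and 6 of 33 in replicate 2. Over all peaks of the lists the shares were 1.81% and 1.73%, over single-copy peaks 1.75% in each, and over promoter peaks of protein-coding genes 1.78% and 1.48%. The windows held 7 different CArG boxes near 4 genes, namely Fos, Fosb, Fosl1 and Junb. The boxes near Fosl1 lay at the shared promoter of Mus81 and AC126029.2. With 100 bp on either side, a limit chosen after the data were seen, 6 windows over both lists held one instead of 9. AP-1 sites were present in 4 windows of each replicate, against 6.78% and 7.15% of single-copy peaks. The 4 different sites lay near Fosl2, Fosb, Junb and Atf3. The site near Junb lay at the promoter of Asna1, and that near Atf3 at the promoter of D730003I15Rik. The full CRE was found at Jund alone, against 3.96% and 3.75% of promoter peaks of protein-coding genes. CRE half-sites, which the full CRE contains, occurred in 6 of 6 and 7 of 8 AP-1 promoter peaks, against 40.5% and 40.0% of promoter peaks of protein-coding genes. These shares took only the highest promoter peak of each protein-coding gene. The AP-1 counts took every promoter peak, so the 8 of replicate 2 hold 2 peaks each for Fosl2 and Junb, and the sets are unlike. The ETS sequence searched (CCGGAA or TTCCGG) was in 0 of 6 and 2 of 8 AP-1 promoter peaks, the latter both at Junb, against 34% and 34.9%. Other ETS sequences were not searched, so these counts do not show whether a promoter lacks a site for the ETS partners of SRF. SP1 sites were in 5 of 6 and 5 of 8, against 66.7% and 69.5%. The NFY site (CCAAT or ATTGG) was in 3 of 6 and 4 of 8, against 49.2% and 46.1%, and the 4 included both Junb peaks. EGR1 sites (GCGGGGGCG or GCGTGGGCG on either strand) were in 1 of 6 and 1 of 8, against 6.38% and 7.05%, and TATA boxes in 2 of 6 and 1 of 8, against 6.06% and 5.66%. A match is a description of the sequence and not evidence of binding, and overlapping windows of the replicates often hold the same site.

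The RefSeq promoter table, which gives 250 bases before to 50 after the start of 27025 genes on GRCm38, matched 7 of the 8 genes, without Fosl1, and the value of Jun is left out with its sequence. The GC content was 68.3% for Fosb, 65.3% for Junb, 64.7% for Fosl2 and for Atf3, and 58.7% for Fos, above the median of 52.7% over all genes in the table. Jund had 46.7%. The windows of Jund and Fosl2 lie around RefSeq starts away from the GENCODE TSS. Those windows and that of Fosb hold neither replicate's promoter summit. The windows of Fos and Atf3 hold the summit of replicate 1 alone.

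Partners and upstream factors of AP-1 were read in the same way. Of 16 genes for dimer partners and related leucine zipper factors, 7 had a promoter peak in replicate 1, 12 in replicate 2 and 7 in both, next to the 32.3%, 44.4% and 30.8% of all protein-coding genes. By mean −log10 q the highest were Creb1, which encodes the CRE-binding factor CREB, with 29 and 73 tags, and Atf7, with 34 and 49. Batf, Batf3, Jdp2 and Maf had no promoter peak in either list. Of 15 genes for upstream kinases and factors, 10 and 11 had a promoter peak, with 10 in both. By mean −log10 q Creb1 again was highest, followed by the Jun kinase gene Mapk8, with 31 and 54 tags, although in replicate 1 Mapk8 was above Creb1. SRF and its ETS partners ranged widely. Srf had 27 and 31 tags, Elk1 had 15 and 38, Elk4 had 17 and 20, and Elk3 had no promoter peak. No peak was listed either at the promoters of Mapk10, Map2k2 or Mapk3, which encodes the kinase ERK1.

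The labelled cell type was checked against promoter peaks of lineage genes. Lhb had 49 and 70 tags, Cga 25 and 50, and Gnrhr 22 and 33. In gonadotropes these genes encode a hormone subunit, the shared hormone subunit and the GnRH receptor. Nr5a1, which encodes steroidogenic factor 1, had 17 tags in replicate 2 only. Fshb, the AP-1 target named above, had no promoter peak in either list. The promoters of Tshb, Gh, Prl, Pomc and Pou1f1, which mark other pituitary lineages, had no peak in either list. This was 0 of 5 genes, against 32.3% of protein-coding genes in replicate 1 and 44.4% in replicate 2.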

How the data were processed

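ATAC-seq peak lists of 2 replicates of GnRH-treated LβT2 cells were used. The authors mapped reads to GRCm38 with Bowtie2, removed duplicates and ran MACS2 on each replicate separately. Tool versions are not given in the sources used here, and no input control is named. The methods give the fly genome size ("-g dm") to MACS2, which enters the expected background and through it every fold, p-value and q-value, so these serve to rank peaks within a list. The deposited columns hold peak positions, a score (the whole part of 10 times −log10 q), the fold enrichment as a ratio to background, and −log10 of the p-value and q-value.

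The score column was checked against −log10 q only. Tags and background were solved from fold and p-value, which returned whole tags at every checked summit. The lists give no read totals, so depth is unknown beyond these tags, with a median of 14 in replicate 1 and 16 in replicate 2. Intervals cover counting error only. Genes and TSSs came from GENCODE vM21 and, as an alternative, RefSeq. Regions were merged where peaks overlapped by at least 1 bp. Summit copy number is the number of genomic places, on either strand, of the 50 bp around a summit. Calculations used Python 3.11.15, NumPy 2.4.6, pandas 2.3.3 and SciPy 1.17.1, and were tested on simulated data.

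The text names all 8 members, the distal region of each with the highest mean −log10 q in both lists, and from each gene list the 2 highest genes and those with no promoter peak. Other distal regions, Srf, Elk1 and Elk4 were named after their values were seen. Members, lists and motifs were chosen with earlier results of these data known. With 1 condition, no groups were compared. Motif searches of the Jun promoter are left out here.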

Additional observations from a re-analysis of the deposited data

How the results depend on the processing

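No paired analysis was possible because both replicates belong to 1 condition. The main values, as means over both replicates, were 7 members with a promoter peak, 20 distal peaks, a share of 76.7% of distal peaks found in both replicates and a median promoter percentile of 58.4. The promoter count was 6 with RefSeq start sites and 3.5 with −log10 q of at least 10. The distal count was 10.5 with −log10 q of at least 5, 6 with at least 10, 11.5 in a window of 20 kb, 41.5 in one of 100 kb, and 9.5 when peaks had to lie over 1 kb from every TSS of every gene. The share in both replicates was 32% with an overlap of 50% of both peaks and 37.3% with summits within 100 bp. The median percentile was 83.0 among all protein-coding genes, counting those without a peak as lowest, and 61.2 among all GENCODE genes with a promoter peak. These alternatives change which peaks or genes enter the count. Leaving out either replicate gave 7 promoters throughout, 15 to 25 distal peaks, shares of 60% to 93.3% and percentiles of 56.9 to 59.9. The counts of promoters that differed between neighbours or between replicates stayed at 0 under the alternatives tried, with 0 at an unadjusted p under 0.05. Neighbours are by construction the closest values and more distant pairs were not tested, so the count between neighbours does not show that the promoters are alike. Tags near the limit of 10 and 11 restrict what the lists can show, so a promoter without a listed peak may still be accessible.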
